A study of Mus musculus with 4 samples.

Results

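The Hox genes were the 39 of 24421 genes in the table whose symbol names a cluster and a paralogous group, as in Hoxb1, with 11 in cluster A, 10 in cluster B, 9 in cluster C and 9 in cluster D. RNA was sequenced from GFP+ cells that had been sorted out of dissociated neural tubes of mouse embryos at E11.5. The Prdm13 GFP allele is a knockin of GFP followed by a stop codon in the first exon of Prdm13, so GFP marks cells in which the Prdm13 locus is active and every sorted cell in both genotypes carries at least 1 disrupted copy. RNA of 7 Prdm13 GFP/+ embryos (Het) was combined into 1 pool and RNA of 9 Prdm13 GFP/GFP embryos (Homo) into another, and 2 libraries were made from each pool. Both libraries of a pool are technical replicates of it. The tests below therefore compare 2 pools, and differences between the pools other than genotype cannot be told apart from it. There were no wild-type libraries among those analysed, and the Het pool is the control throughout.

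Hox genes encode homeodomain transcription factors that give cells of the hindbrain and spinal cord their position along the head-to-tail axis. They lie in clusters in which genes at one end are active from the hindbrain backwards and genes at the other end only towards the tail, so that the order on the chromosome follows the order along the body. Genes with the same number in different clusters form a paralogous group, and their proteins bind DNA together with cofactors of the Pbx and Meis families. Groups 1 to 3 are called anterior here, groups 4 to 8 central and groups 9 to 13 posterior. On GRCm38 (mm10), cluster A lay at chr6:52155367-52260880, cluster B at chr11:96194316-96368254, cluster C at chr15:102921131-103036856 and cluster D at chr2:74668225-74765142. In all 4 clusters the gene ends were in the order of the paralogous groups.

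The libraries held 12057294 to 19177660 reads on genes, as recovered from the steps of the deposited RPKM (reads scaled to exon length and library size), and between 11774 and 11831 genes reached 1 RPKM. Prdm13 was at 114 and 127 RPKM in the Het libraries and at 310 and 324 RPKM in the Homo libraries, and because the GFP insert leaves later exons in place this does not check loss of the protein. All 7 neural tube markers passed the limit of 1 RPKM. The summed RPKM of 8 forebrain and midbrain markers was 0.72 to 0.74 in Het and 1.53 to 1.81 in Homo, with Otx2 and Emx2 at 0 in every library. Most of this sum was Lhx2, a gene also active in dorsal interneurons, and the other 7 markers summed to 0.0638 to 0.0971 RPKM in Het and 0.161 to 0.285 RPKM in Homo. The 11 mesenchyme, somite and limb markers summed to 5.0 to 5.59 RPKM in Het and 4.04 to 4.05 RPKM in Homo, and the 5 caudal end markers to 3.20 to 3.35 and 2.98 to 3.29 RPKM, with Fgf8 at 0. The 7 sensory ganglion and neural crest markers summed to 15.3 to 18.1 RPKM in Het and 39.2 to 41.5 RPKM in Homo. The 4 endothelial markers summed to 1.73 to 1.94 RPKM over all libraries, and the 6 erythroid markers to 47.2 to 47.9 RPKM in Het and 48.6 to 49.7 RPKM in Homo, with Hba-a1 at 0. Among 9 genes of the dorsal lineages, 2 rose and 4 fell past the threshold used below, against 3.65% and 2.67% of all genes tested. Tlx3 was at 4.63 and 5.63 RPKM in Het and 86.2 and 94.1 RPKM in Homo. Pax2 was at 106 and 119 RPKM in Het and 17.7 and 18.6 RPKM in Homo. The part of these shifts in the Hox values was not tested, and in bulk RNA fewer cells that express a gene and less RNA per cell cannot be told apart.

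The sorted cells held high levels of central Hox transcripts and almost none of groups 11 to 13. Summed over the 39 genes, Hox RPKM was 2378 and 2451 in the Het libraries and 2024 and 2066 in the Homo libraries. The Homo sums were lower than both Het sums, with a log2 ratio of means of -0.24. As a share of recovered reads, Hox genes took 0.512 and 0.526% in Het and 0.432 and 0.438% in Homo. Cluster B held most of the sum, with 58.2% ± 0.091 (SD, n = 2 libraries) in Het and 56.0% ± 0.40 in Homo. Cluster A held 19.0% ± 0.22 in Het and 18.4% ± 0.27 in Homo. For cluster C the share was 13.8% ± 0.14 in Het and 15.7% ± 0.15 in Homo, and for cluster D it was 9.0% ± 0.27 and 9.90% ± 0.019. Relative to the other clusters the shares of A and B were thus lower in both Homo libraries and those of C and D higher. With 2 libraries a genotype an exact permutation test cannot go below a two-sided p of 0.333, so the sums and shares are described with no test.

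Along each cluster the level did not change evenly with the group number. In cluster B it was highest at Hoxb9, a gene of the thoracic cord, which ranked 133rd of 24421 genes by mean RPKM. Hoxb8, which acts in sensory circuits of the dorsal spinal cord, came next and ranked 218th. Cluster A had its highest level at Hoxa5, cluster C at Hoxc4 and cluster D at Hoxd4, all genes of the caudal hindbrain, neck and forelimb levels. Spearman's rho between level and group number over the members tested was -0.35 in cluster A (n = 9), 0.617 in cluster B (n = 9), -0.886 in cluster C (n = 6) and 0.1 in cluster D (n = 5), as a description of genes that share the same libraries. No gene of groups 11 to 13 was above 0.108 RPKM in any library.

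**Figure D1:**
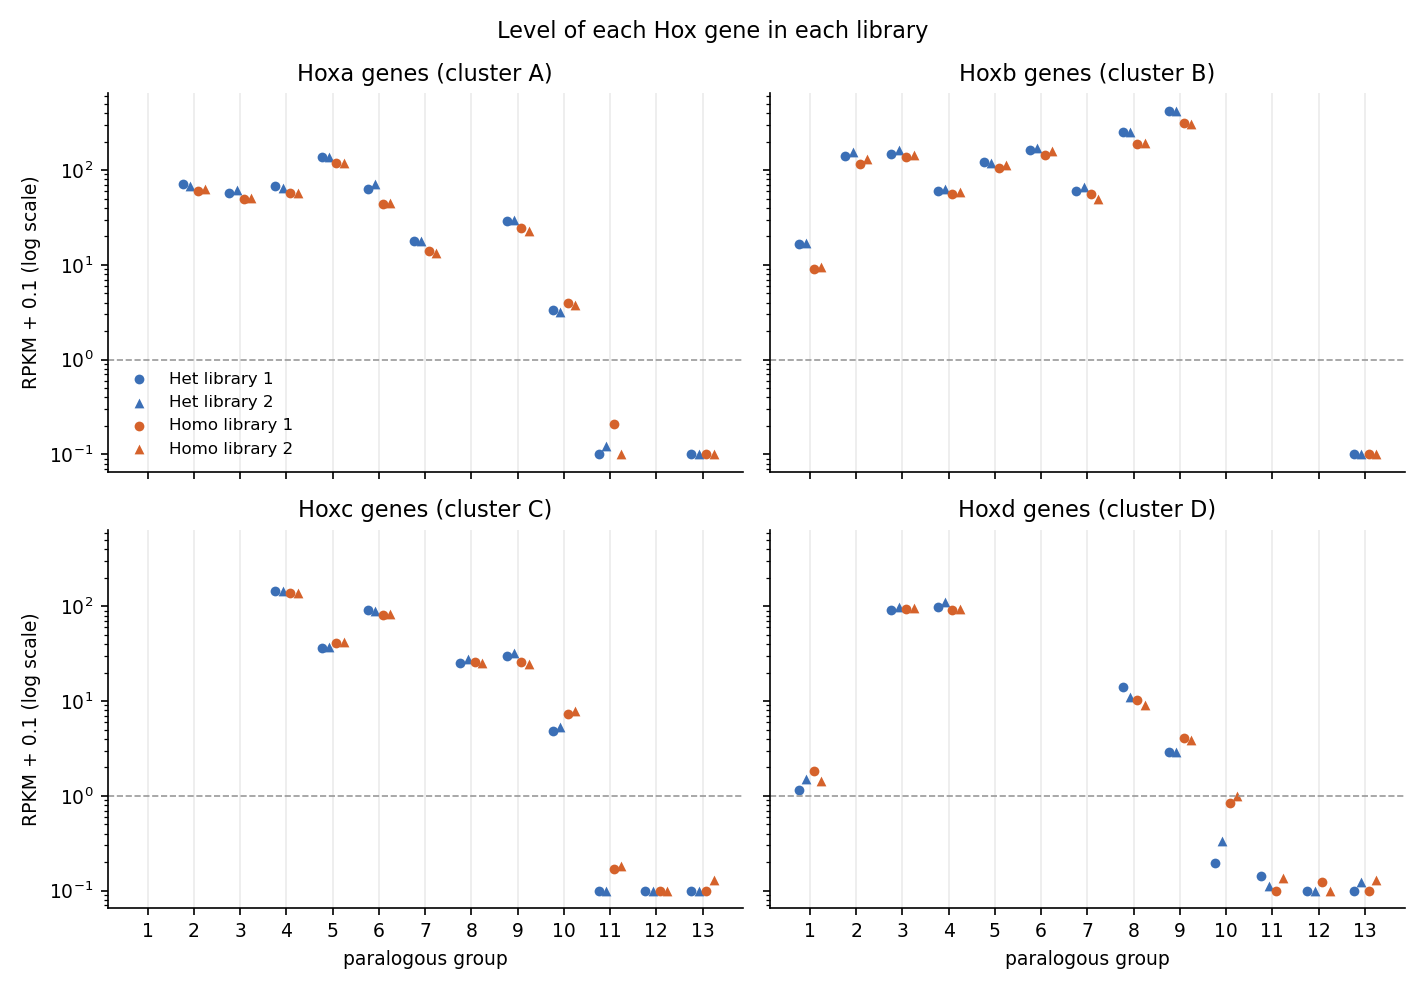
RPKM plus 0.1 on a log axis against paralogous group for 38 of the 39 Hox genes, in 1 panel per cluster, with blue for Het and orange for Homo and 1 point per library. Dashed lines mark a value of 1 on the axis; levels run from Hoxb9 at 306 to 424 RPKM down to genes listed at 0, and the genotypes lie close together beside this range.

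The comparison between the genotypes asked which Hox genes differed when the second copy of Prdm13 was disrupted. Of the 39 genes, 29 had a mean of 1 RPKM or more in Het or Homo and were tested with limma among 12046 genes, and each of the 29 passed this limit in both genotypes. A gene was called where the Benjamini-Hochberg adjusted p was under 0.05 and the fold at least 1.5. No Hox gene was called higher in Homo, against 3.65% of all genes tested, and 2 were called lower, Hoxb1 and Hoxa6, against 2.67% of all genes. In either direction 6.33% of all genes were called. At an adjusted p under 0.05 whatever the fold, 13 Hox genes were lower in Homo, against 9.95% of all genes, and 3 were higher, against 9.76%. These 2 counts depended on the setting: without Homo replicate 2 they were 4 and 0, without any other single library 5 to 7 and 1, without a trend 6 and 2, and with limma voom on the recovered reads 20 and 3. At an unadjusted p under 0.05 these counts were 20 lower (16.8% of all genes) and 4 higher (17.3%).

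Most of the Hox genes moved a little and in one direction. The log2 fold change (Homo minus Het) was below 0 for 24 of the 29 and above 0 for 5, while 47.6% of all genes tested were below 0 and 52.4% above. Both Homo libraries were below both Het libraries for 22 Hox genes, against 30.3% of all genes, and above both for 4, against 31.7%. Between the libraries of a genotype, the median absolute log2 difference over the 29 was 0.082 in Het and 0.058 in Homo, against 0.078 in each over all genes tested. The median log2 fold change was -0.18 over the Hox genes and 0.010 over all genes tested. By cluster the median was -0.25 for cluster A, -0.26 for cluster B, -0.053 for cluster C and -0.022 for cluster D. By position it was -0.22 for the anterior, -0.18 for the central and -0.019 for the posterior genes, the last over 6 genes of which 3 were above 0. With no limit on RPKM the posterior median turned to 0.19, over 13 genes, and without Homo replicate 2 it was 0.021. Whether clusters or positions differ from each other was not tested. Spearman's rho of the log2 fold change with group number was 0.117 in cluster A, -0.05 in B, 0.143 in C, 0 in D and 0.0899 over all 29, so no even slope ran along the clusters.

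**Figure D2:**
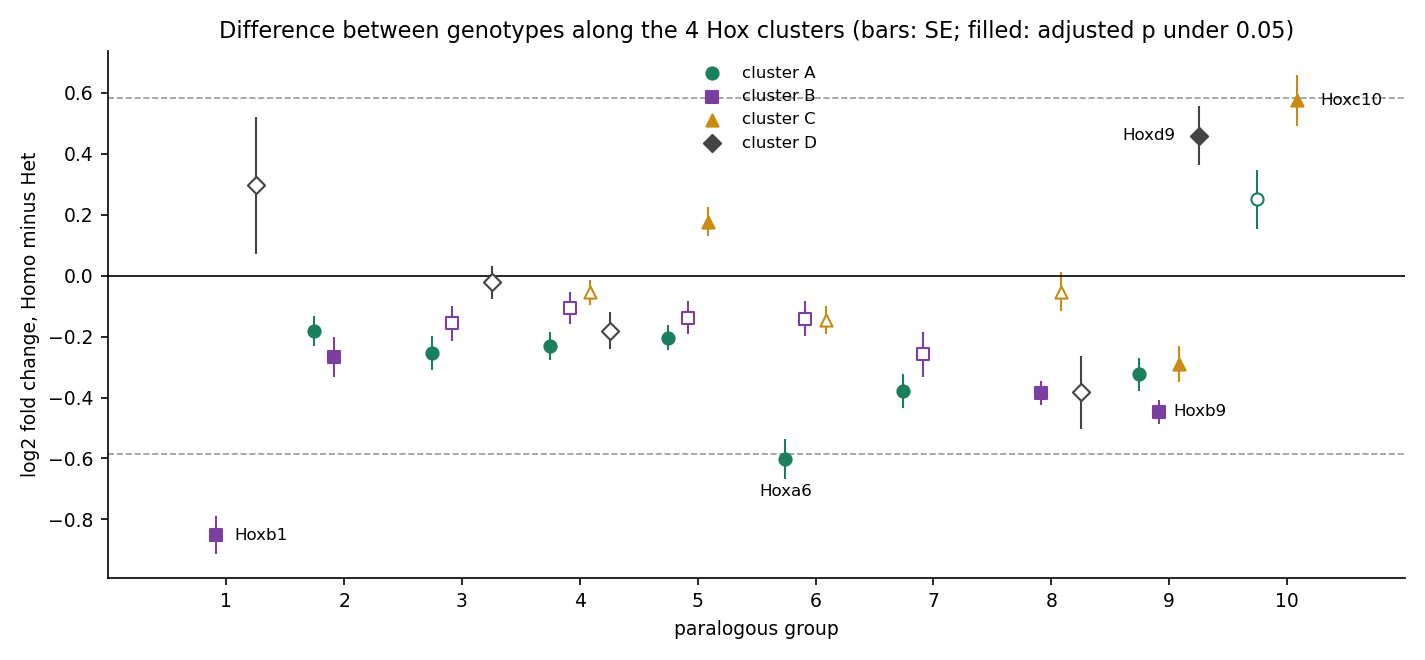
Log2 fold change (Homo minus Het) on the vertical axis against paralogous group for 28 of the 29 Hox genes tested, with bars of 1 SE, colour and shape by cluster and filled symbols for an adjusted p under 0.05. Dashed lines mark 1.5-fold; Hoxb1 and Hoxa6 lie below the lower line, while Hoxc10, Hoxd9 and Hoxa10 lie above 0 at the posterior end.

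Group 1 genes pattern the early hindbrain. Hoxb1, which gives the fourth segment of the hindbrain its identity and keeps its own transcription on together with Pbx cofactors, was at 16.4 and 17.1 RPKM in the Het libraries and at 8.97 and 9.5 RPKM in the Homo libraries. Both Homo values were well below the lower Het value. The log2 fold change was -0.85 (SE 0.062, limma adjusted p = 0.000354). Hoxb1 (gene ID 15407) lies at chr11:96365746-96368254 on GRCm38. These levels rest on 395 and 649 recovered reads in Het and 303 and 270 in Homo. Hoxd1 went the other way within its spread, at 1.07 and 1.41 RPKM in Het and 1.75 and 1.33 RPKM in Homo (log2 fold change 0.30, SE 0.22), and the genotypes overlapped. Relative to the next gene of its cluster, Hoxb1 was at 0.115 and 0.111 times the RPKM of Hoxb2 in Het and 0.0768 and 0.0734 times in Homo, so it was also lower beside its neighbour.

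Cluster A held the other called gene, Hoxa6, a gene of the brachial cord. It was at 63.4 and 71.5 RPKM in Het and at 44.2 and 44.5 RPKM in Homo. The Homo libraries agreed closely and were both below Het, with a log2 fold change of -0.60 (SE 0.065, limma adjusted p = 0.00182). Without Het replicate 2, the higher of the Het values, it was -0.52 and under the 1.5-fold threshold. Hoxa6 (gene ID 15403) lies at chr6:52204858-52208672 on GRCm38. The ratio of Hoxa6 to Hoxa5 was 0.461 and 0.522 in Het and 0.369 and 0.374 in Homo. GENCODE vM21 gives Hoxa6 no exon bases in common with another gene of the table. Its antisense neighbour Hoxaas3, a noncoding transcript that shares exon bases with Hoxa3 and Hoxa7, was at 25.9 and 27.8 RPKM in Het and 16.5 and 18.1 RPKM in Homo. Hoxaas3 was called lower too, with a log2 fold change of -0.63 (SE 0.069, limma adjusted p = 0.00186).

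The 250 bases before a RefSeq start are shown for the 2 called genes and for Hoxd10, a posterior gene described below, as 5′ to 3′ on the gene's strand and with capitals for TGATNNAT, the letters of a joint Pbx and Hox site, searched on both strands. The windows are on GRCm38.p6, at chr11:96365508-96365757 (+) for Hoxb1, chr6:52208673-52208922 (-) for Hoxa6 and chr2:74691641-74691890 (+) for Hoxd10. Each window ends at the start given in the promoter table, and for Hoxb1 and Hoxd10 the RefSeq gene span also holds transcripts with an earlier start.
Hoxb1: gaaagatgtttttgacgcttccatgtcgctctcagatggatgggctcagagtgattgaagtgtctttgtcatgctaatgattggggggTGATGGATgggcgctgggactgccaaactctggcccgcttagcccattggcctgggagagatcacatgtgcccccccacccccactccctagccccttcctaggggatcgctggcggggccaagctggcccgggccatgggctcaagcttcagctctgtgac
Hoxa6: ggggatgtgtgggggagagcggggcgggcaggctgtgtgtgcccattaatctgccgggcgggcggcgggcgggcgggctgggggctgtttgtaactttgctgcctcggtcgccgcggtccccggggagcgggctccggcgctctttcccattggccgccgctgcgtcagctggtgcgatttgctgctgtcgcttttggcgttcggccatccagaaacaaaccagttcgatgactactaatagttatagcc
Hoxd10: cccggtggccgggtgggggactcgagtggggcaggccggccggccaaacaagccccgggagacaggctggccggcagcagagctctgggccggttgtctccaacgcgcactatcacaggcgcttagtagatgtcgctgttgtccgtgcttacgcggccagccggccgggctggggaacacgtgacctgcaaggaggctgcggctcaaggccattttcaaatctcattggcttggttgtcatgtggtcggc

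The Hoxb1 window held 1 match, which began 162 bases before the start, and the windows of Hoxa6 and Hoxd10 held none. Of all 32851 RefSeq promoters of this length, 7.68% held a match. Among the 24 promoters listed for 22 of the Hox genes, 4 did: those of Hoxb1, Hoxa2, Hoxb8 and 1 of the 2 of Hoxd11. Hoxa2 and Hoxb8 both had lower values in Homo (below), as had 22 of the 29 Hox genes tested. Hoxa6, which held no match, was called lower too, and Hoxd11 had no more than 2 reads in any library. A match is a description of letters and not a bound site. The median ratio of observed to chance CpG was 0.721 over the 24 (range 0.160 to 1.11) and 0.373 over all promoters. A ratio of at least 0.6 was found for 13 of the 24 and for 33.95% of all promoters, so the Hox promoters were mixed in this respect. The ratio was 0.320 for Hoxb1, 0.933 for Hoxa6 and 0.755 for Hoxd10.

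In cluster A, most of the genes tested were lower in Homo at an adjusted p under 0.05, against 9.95% of all genes. Hoxa2, a gene of the anterior hindbrain, was at 71.6 and 68.3 RPKM in Het and 60.7 and 62.6 RPKM in Homo (log2 fold change -0.18, SE 0.049, limma adjusted p = 0.0447). Hoxa3, active from the middle of the hindbrain, was at 57.2 and 62.2 RPKM in Het and 49.6 and 50.3 RPKM in Homo (-0.25, SE 0.056, limma adjusted p = 0.0241). The next 2 genes along the cluster differed by similar amounts. Hoxa4 was at 67.8 and 65.4 RPKM in Het and 56.8 and 56.6 RPKM in Homo (-0.23, SE 0.046, limma adjusted p = 0.0173). Hoxa5, needed for motor neurons that drive breathing, was at 137.4 and 137.2 RPKM in Het and 119.6 and 118.7 RPKM in Homo (-0.20, SE 0.041, limma adjusted p = 0.0180). Hoxa7 and Hoxa9 had estimates further from 0 than these 4 genes. Hoxa7 was at 17.6 and 17.9 RPKM in Het and 13.9 and 13.4 RPKM in Homo (-0.38, SE 0.055, limma adjusted p = 0.00567). Hoxa9, a thoracic gene, was at 29.2 and 29.5 RPKM in Het and 24.2 and 22.8 RPKM in Homo (-0.32, SE 0.055, limma adjusted p = 0.00962). Which genes passed depended on the setting. Fitted without a trend, Hoxa2, Hoxa3, Hoxa4 and Hoxa5 did not pass (limma adjusted p = 0.0646 to 0.119), while Hoxa7 and Hoxa9 did. With limma voom on the recovered reads these genes all passed. Hoxa10 alone in the cluster was higher in both Homo libraries. Hoxa10, a lumbar gene, was at 3.22 and 3.07 RPKM in Het and 3.88 and 3.65 RPKM in Homo (0.25, SE 0.097, limma adjusted p = 0.125), which did not pass the test.

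All 9 genes tested in cluster B had lower values in both Homo libraries, against 30.3% of all genes. At an adjusted p under 0.05, 4 passed, against 9.95% of all genes that were lower. They were Hoxb1, Hoxb2, Hoxb8 and Hoxb9. Hoxb2, which acts with Hoxb1 in the hindbrain, was at 142.6 and 153.8 RPKM in Het and 117 and 129 RPKM in Homo (log2 fold change -0.27, SE 0.065, limma adjusted p = 0.0334). Hoxb8 was at 252 and 249.6 RPKM in Het and 191 and 194 RPKM in Homo (-0.38, SE 0.040, limma adjusted p = 0.00162). Hoxb9 was at 418 and 424 RPKM in Het and 312 and 306 RPKM in Homo (-0.45, SE 0.040, limma adjusted p = 0.000807). Hoxb9 alone was 112 RPKM lower in Homo, of 369 RPKM for the sum of all Hox genes. The genes between them had smaller estimates and did not pass after adjustment in this fit. Which genes passed depended on the setting, since 4 of the 5 genes from Hoxb3 to Hoxb7 passed under quantile normalization and with voom, and 3 with the replicate block, while Hoxb2 did not pass without a trend (adjusted p = 0.111), with no RPKM limit, or without any 1 of the libraries (0.0667 to 0.165). Hoxb3, of the caudal hindbrain, was at 149 and 163 RPKM in Het and 136 and 143 RPKM in Homo (-0.16, SE 0.057, limma adjusted p = 0.107). Hoxb4 was at 59.9 and 63.4 RPKM in Het and 56.1 and 58.4 RPKM in Homo (-0.11, SE 0.052). Hoxb5 was at 121 and 119 RPKM in Het and 105 and 114 RPKM in Homo (-0.14, SE 0.054, limma adjusted p = 0.127). Each of these had a gap between the genotypes that was no wider than the spread within one of them. For Hoxb6 the levels were 162 and 173 RPKM in Het and 146 and 159 RPKM in Homo (-0.14, SE 0.058, limma adjusted p = 0.144). For Hoxb7 they were 60.2 and 65.8 RPKM in Het and 55.7 and 49.7 RPKM in Homo (-0.26, SE 0.073, limma adjusted p = 0.0522), just outside the threshold.

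Cluster C, which has no genes of groups 1 to 3, held genes on both sides of 0. Hoxc4, its highest gene, was at 143 and 145 RPKM in Het and 139.4 and 138.9 RPKM in Homo (log2 fold change -0.054, SE 0.041, limma adjusted p = 0.406). Hoxc5, which with Hoxa5 acts in motor neurons of the neck, was at 36.5 and 37.0 RPKM in Het and 40.9 and 42.3 RPKM in Homo (0.18, SE 0.048, limma adjusted p = 0.0473). Hoxc5 was the 1 central gene of any cluster that rose. It did not pass with no RPKM limit, under quantile normalization or without a trend (limma adjusted p = 0.0609 to 0.110). Hoxc6, a brachial gene, was at 91.3 and 88.9 RPKM in Het and 80.2 and 83.0 RPKM in Homo (-0.14, SE 0.046, limma adjusted p = 0.0743). Hoxc8 overlapped between the genotypes, at 25.1 and 27.8 RPKM in Het and 25.8 and 25.2 RPKM in Homo (-0.052, SE 0.064). Hoxc9, which sets the thoracic identity of motor neurons, was at 30 and 32 RPKM in Het and 26.0 and 24.7 RPKM in Homo (-0.29, SE 0.059, limma adjusted p = 0.0187). Without a trend Hoxc9 did not pass (limma adjusted p = 0.0631). Its next neighbour moved the other way. Hoxc10, a gene of the lumbar cord, was at 4.74 and 5.25 RPKM in Het and 7.27 and 7.72 RPKM in Homo, with no overlap. The log2 fold change was 0.58 (SE 0.084, limma adjusted p = 0.00556), which lies just under the threshold of 0.585 for 1.5-fold. It passed that threshold without Het replicate 2 (0.65) and without Homo replicate 1 (0.62). Without Het replicate 1 (0.50) or without Homo replicate 2 (0.53) it was further under it. Its levels rest on 105 and 184 reads in Het and 226 and 202 in Homo. In GENCODE an isoform of Hoxc5 shares 166 exon bases with Hoxc10, while the RefSeq genes, on which reads were counted, lie apart.

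Cluster D had 5 genes tested, of which Hoxd9 passed at an adjusted p under 0.05. Hoxd3, of the caudal hindbrain, was at 92.3 and 99.4 RPKM in Het and 92.6 and 96.2 RPKM in Homo (log2 fold change -0.022, SE 0.054) and overlapped. Hoxd4 was at 99.1 and 110.5 RPKM in Het and 91.0 and 93.6 RPKM in Homo (-0.18, SE 0.061, limma adjusted p = 0.0888). In GENCODE Hoxd3 and Hoxd4 share 388 exon bases, 13.2% of those of Hoxd4, and whether the RefSeq models used for counting did was not tested. Hoxd8 was at 14 and 11 RPKM in Het and 10.1 and 8.94 RPKM in Homo (-0.38, SE 0.12, limma adjusted p = 0.0710), with a wide spread within Het. Hoxd9, a gene of the lower thoracic and lumbar cord, was at 2.80 and 2.78 RPKM in Het and 3.95 and 3.79 RPKM in Homo (0.46, SE 0.097, limma adjusted p = 0.0210). It rose, and it was the 1 gene of group 9 above 0. Hoxd9 did not pass with no RPKM limit (limma adjusted p = 0.052), while it passed in the other fits with every library. With 1 library left out its log2 fold change was 0.43 to 0.49.

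Hoxd10, which acts in lumbar motor neurons with Hoxc10, did not reach 1 RPKM and was not tested among the 29. Its RPKM was 0.0934 and 0.236 in Het and 0.731 and 0.909 in Homo. These stand for 2 and 8 reads in Het and 22 and 23 reads in Homo, so both Homo libraries were above both Het libraries on few reads. From the reads summed per genotype, 10 and 45, the level was 4.49 times as high in Homo, with an exact 95% interval of 2.23 to 10 that covers counting error only. With no limit on RPKM, limma gave a log2 fold change of 1.85 (SE 0.35, adjusted p = 0.0292 over 19200 genes). Of the Hox genes not tested, this fit is given for Hoxd10 alone, and the adjusted p does not allow for that choice. The pseudocount of 0.1 is also above its lower Het value of 0.0934 RPKM.

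In clusters A, C and D the genes at the posterior edge of expression, Hoxa10, Hoxc10, Hoxd9 and Hoxd10, were higher in both Homo libraries. The gene before each of Hoxa10, Hoxc10 and Hoxd9 was lower in both. Of all genes tested, 31.7% were higher in both Homo libraries and 30.3% lower in both. Hoxc10 was at 0.158 and 0.164 times the RPKM of Hoxc9 in Het and 0.279 and 0.313 times in Homo. Hoxd9 was at 0.20 and 0.252 times Hoxd8 in Het and 0.392 and 0.425 times in Homo. Hoxa10 was at 0.110 and 0.104 times Hoxa9 in Het and 0.160 and 0.161 times in Homo. In each of these 3 pairs the step down to the more posterior gene was shallower in Homo than in Het, and a ratio within a library does not depend on how libraries are scaled. Hoxd10 was at 0.0334 and 0.0849 times Hoxd9 in Het and 0.185 and 0.24 times in Homo. Cluster B, which has no genes of groups 10 to 12, ended at Hoxb9, with Hoxb13 listed at 0. At this edge the direction was the opposite, since Hoxb9 was lower in both Homo libraries (log2 fold change -0.45). The pairs were chosen with the fold changes known, and their differences are given as a description. The axial extent of the neural tube tissue in each pool is not given in the sources used here, so a difference in it and a difference between genotypes cannot be told apart in any Hox level or ratio.

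**Figure D3:**
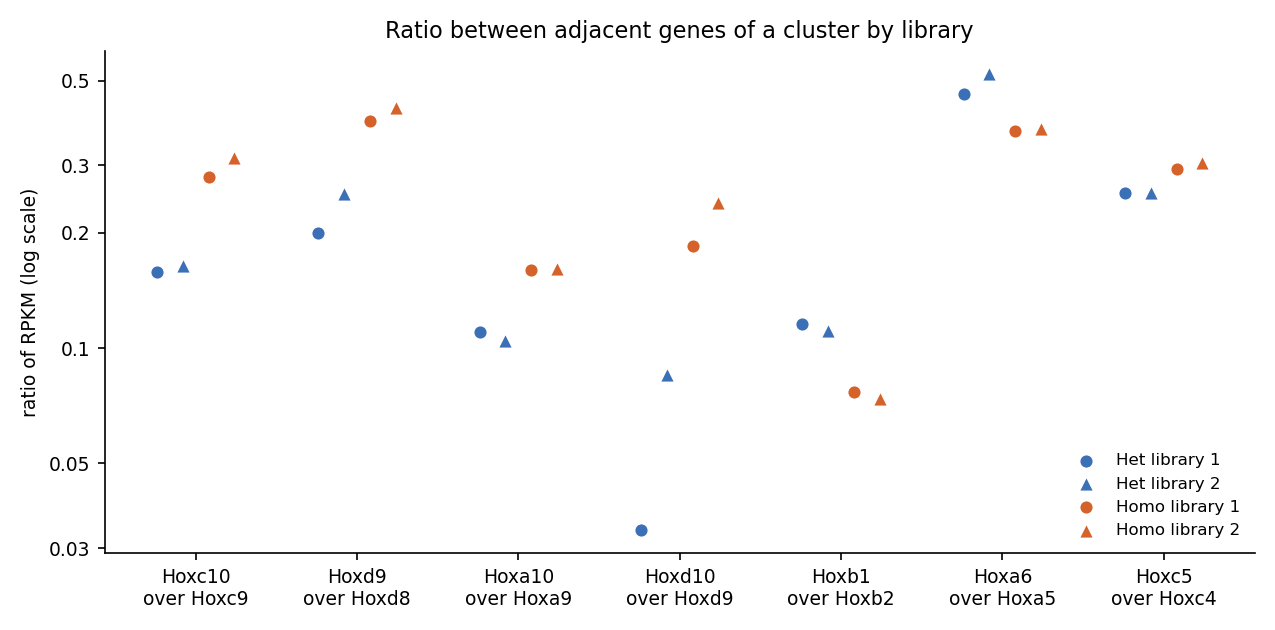
Ratio of the RPKM of a gene to that of the adjacent gene of its cluster, on a log axis, for 7 pairs, with 1 point per library, blue for Het and orange for Homo. The 4 pairs at the posterior edge of clusters A, C and D (Hoxc10, Hoxd9, Hoxa10 and Hoxd10 over the gene before) are higher in both Homo libraries. Hoxc5 over Hoxc4 is higher too, and Hoxb1 over Hoxb2 and Hoxa6 over Hoxa5 are lower.

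Summed by paralogous group, levels were lower in both Homo libraries for groups 2 to 9 and higher for groups 10 and 11, the last on under 10 reads a library. The log2 ratio of means was -0.24 for group 2 and lay between -0.13 and -0.12 for groups 3, 4 and 5. It was -0.23 for group 6, -0.28 for group 7, -0.35 for group 8 and -0.42 for group 9, so that groups 3 to 5 lay closest to 0. The group 9 sum, most of it from Hoxb9, was 480.4 and 488 RPKM in Het and 366 and 357 RPKM in Homo. The group 10 sum was 8.05 and 8.56 RPKM in Het and 11.9 and 12.3 RPKM in Homo, a log2 ratio of 0.54. Groups 10 to 13 together were 0.346% of the Hox sum in Het and 0.60% in Homo, so this rise involved a small part of the Hox transcripts.

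**Figure D4:**
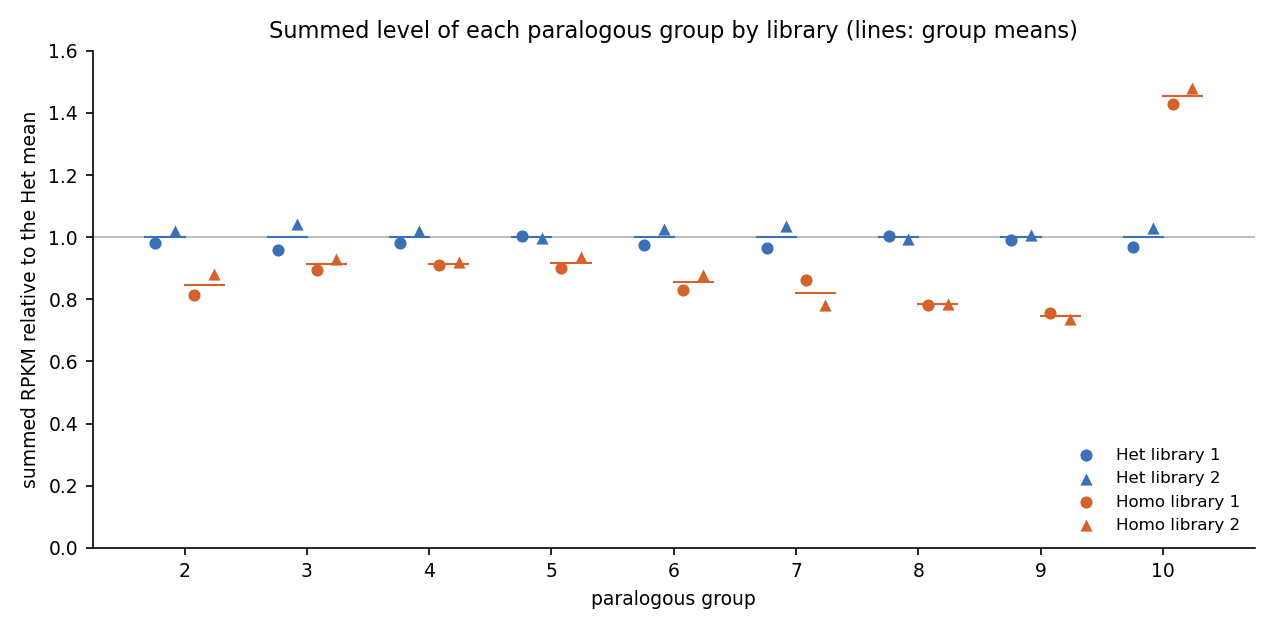
Summed RPKM of each paralogous group from 2 to 10 divided by the Het mean of that group, on a linear axis from 0, with 1 point per library (blue Het, orange Homo) and lines for the means of a genotype. Homo libraries lie below Het libraries for groups 2 to 9 and above them for group 10.

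The 10 genes that were not tested were Hoxd10 and 9 others of groups 11 to 13. Hoxa13, Hoxb13 and Hoxc12 were listed at 0 in all 4 libraries, so they had no reads. Taken alone, a library with no reads does not exclude a level that would give up to 3 reads on average. No tighter limit was worked out from the libraries together. Hoxa11, Hoxc11, Hoxc13, Hoxd11, Hoxd12 and Hoxd13 together held 2 and 3 reads in Het and 7 and 6 reads in Homo. Their highest RPKM in any library was 0.108, for Hoxa11 with 4 reads in 1 Homo library and none in the other. Differences between the genotypes were not detectable for these genes at this depth. Of the GENCODE exon bases of Hoxa11, 35.0% are shared with its antisense gene Hoxa11os, which was at or near 0 as well.

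Other transcripts that start within the clusters were measured in the same libraries. Hoxb5os, on the strand opposite to Hoxb5, was at 66.8 and 91.2 RPKM in Het and 52.3 and 58.4 RPKM in Homo (log2 fold change -0.50, SE 0.14, limma adjusted p = 0.0497), with a wide spread within Het. Haglr, a noncoding transcript of cluster D, was at 21 RPKM in both Het libraries and 24 and 23.6 RPKM in Homo (0.18, SE 0.050, limma adjusted p = 0.0507). Hotairm1, a noncoding transcript of cluster A, overlapped between the genotypes (-0.24, SE 0.12, limma adjusted p = 0.217). The hairpin gene Mir10a of cluster B was called lower, but on 10 and 14 reads in Het and 6 and 2 reads in Homo (-1.75, SE 0.37, limma adjusted p = 0.0201), and polyA-selected reads over a hairpin do not measure the mature miRNA. Whether counting used strand is not given in the sources used here, so reads of the 7 Hox genes with GENCODE exon bases opposite another gene of the table may in part belong to that gene. Of the genes that flank the clusters, Skap2 beside cluster A was lower in Homo (-0.28, SE 0.053, limma adjusted p = 0.0149) and Smug1 near cluster C higher (0.17, SE 0.044, limma adjusted p = 0.0401).

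All 9 cofactor genes were tested, and 1 was called, against 6.33% of all genes. Meis3, whose protein joins Pbx and Hox proteins on hindbrain targets, was at 107 and 111 RPKM in Het and 182 and 190.2 RPKM in Homo. It rose by 0.77 on the log2 scale (SE 0.046, limma adjusted p = 0.000151), with Homo far above Het. Meis2 was higher as well, at 53.6 and 54.9 RPKM in Het and 64.1 and 62.5 RPKM in Homo (0.22, SE 0.046, limma adjusted p = 0.0195). Pknox2 was lower, with means of 14.6 RPKM in Het and 11.3 RPKM in Homo (-0.37, SE 0.060, limma adjusted p = 0.00866). Pbx2, Pbx3, Pbx4, Meis1 and Pknox1 did not pass the test, and their log2 fold changes lay between -0.057 and 0.20. The median over the 9 was 0.016.

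Of 21 listed regulators of Hox clusters 15 were tested, of which 1 was called higher (against 3.65% of all genes) and 1 lower (against 2.67%). The gene called higher was Cyp26a1, whose enzyme breaks down retinoic acid. Its level was 0.194 and 0.245 RPKM in Het and 1.21 and 0.944 RPKM in Homo (log2 fold change 1.88, SE 0.39, limma adjusted p = 0.0192). These values stand for 4 and 8 reads in Het and 35 and 23 in Homo. Cyp26a1 was tested only because its Homo mean of 1.08 RPKM passed the limit, which its Het mean of 0.22 RPKM did not. Cyp26b1, a second enzyme of this family, was higher without reaching 1.5-fold (0.42, SE 0.10, limma adjusted p = 0.0301), and the retinoic acid receptor gene Rarb was lower (-0.27, SE 0.049, limma adjusted p = 0.0132). Among chromatin genes, Kmt2a of the activating trithorax group (-0.30, SE 0.058, limma adjusted p = 0.0152) and Suz12 of the repressive Polycomb complex (-0.23, SE 0.048, limma adjusted p = 0.0215) were lower, and Ring1, of a second Polycomb complex, was higher (0.31, SE 0.073, limma adjusted p = 0.0292). Over the 15 tested, 3 were higher (against 9.76% of all genes) and 4 lower (against 9.95%) at an adjusted p under 0.05, with a median of -0.044. Cdx1, Cdx2 and Cdx4, which turn on central and posterior Hox genes in the early embryo, were at or below 0.042 RPKM in every library.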

How the data were processed

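The authors aligned reads with TopHat2 2.1.0 to mm10, counted them on exons of RefSeq genes with featureCounts, scaled library sizes with TMM in edgeR 3.6.8 and deposited RPKM values, which were used as deposited. Whole reads were recovered from the RPKM steps for 99.99% of 17377 genes (12057294 and 19177660 reads in Het, 17095525 and 14460208 in Homo). The reads of a gene scale with the exon length solved along with them. That length was within 5% of the GENCODE exon length for 70.7% of 16698 genes. Strandedness and the treatment of reads on shared exons are not given in the sources used here.

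For the 12046 genes whose mean reached 1 RPKM in Het or Homo, log2(RPKM + 0.1) was fitted with limma 3.58.1 (lmFit, eBayes with trend) in R 4.3.3, and two-sided p-values were adjusted by Benjamini-Hochberg. Fold changes are on that scale, which understates those of low genes. The recovery and the fit were tested on simulated data. Other pseudocounts, no RPKM limit, median ratio and quantile scaling, no trend, a replicate block, leaving out each library, and limma voom on recovered reads were tried as alternatives.

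Values in every library are given for the Hox genes tested, and full statistics for those called, those with an unadjusted p under 0.05 and the highest of each cluster. Other genes named are those of the lists of cofactors, regulators, neighbours and markers, and Prdm13. Members and lists were chosen with earlier results of these data known. All 39 members matched RefSeq by gene ID. Promoter sequences are from RefSeq (GRCm38.p6), and exons from GENCODE vM21. Tables and plots were made with Python 3.11.15, numpy 2.4.6, pandas 2.3.3, scipy 1.17.1 and matplotlib 3.10.9. The ChIP-seq data of the series were not analysed here. Values of 1 Hox gene and of some listed genes are not reported here.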

Additional observations from a re-analysis of the deposited data

How the results depend on the processing

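Hoxb1 was called in all 13 settings and Hoxa6 in 12, the exception being without Het replicate 2. The number of Hox genes called was 2 or 3 in every setting, and 2 with the replicate block. Only 2 pairs share a replicate number (correlation of their deviations 0.047), so the numbers were not taken to pair the libraries; the block gave 459 genes called higher and 342 lower. Leaving out 1 library each, where the lone library is assumed to vary like the other genotype's, gave 258 to 437 genes called higher and 212 to 266 lower, against 440 and 322; both lowest counts came without Homo replicate 2. Of 348 values of single Hox genes under the alternatives, 340 kept their direction and stayed called or not called. Only 2 of the 29 genes were called in the main fit, so most could keep their side by staying uncalled. The count does not show whether the adjusted p alone stayed under 0.05. Hoxc10 was called with a pseudocount of 0.01 (0.58), without Het replicate 2 and without Homo replicate 1. The sign turned for Hoxc8 without Het replicate 2 (range over left-out libraries -0.13 to 0.020) and for Hoxd3 without Het replicate 2 or Homo replicate 1 (-0.075 to 0.031, the latter 0.0059). With no RPKM limit the median log2 fold change was -0.14 over 36 Hox genes and 0.19 over 13 posterior genes, since more genes of few reads entered; the posterior median was also above 0 without Homo replicate 2 (0.021). At an adjusted p under 0.05 whatever the fold, Hox genes lower in Homo numbered 4 to 20 over the settings, against 13, and 19 with the replicate block. Under quantile normalization the median was -0.23 over all 29 and -0.23 over the central genes, and shares of the Hox sum were 58.5% for cluster B in Het, 9.93% for cluster D in Homo, 58.0% for central groups in Homo and 20.7% for posterior groups in Het; the cause was not tested. Genes under 10 reads a library are limited by depth, and all tests compare 1 pool with 1 pool.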
